A study of Mus musculus with 8 samples.

Results

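A set of 10 genes of oxygen sensing and apelin signalling was read in cardiomyocytes taken from the hearts of male newborn mice. They included Hif1a and Epas1, which encode alpha subunits of the hypoxia-inducible factors (HIFs), and the HIF prolyl hydroxylases Egln1, Egln2 and Egln3. The others were the secreted peptides Apln and Adm, the apelin receptor Aplnr, and the hypoxia-responsive genes Mgarp and Ankrd37. The rows were taken by gene symbol from a table of raw RNA-seq counts of 27179 genes, and all 10 were found and passed the filter on low counts, as did 14966 genes in all. The list was drawn up with results of the comparison described here already known, so the values below describe these genes and their number is no test of the pathway.

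Dams of the strain C57Bl/6J breathed either filtered air (FA) or diesel exhaust (DE) from E0.5 to E17.5, and neonatal cardiomyocytes (NCMs) were isolated from male pups on the day of birth (PND0). Each library came from 1 heart, and each group had 4 libraries. Hearts of both groups were trimmed of atrial and vascular tissue, digested with Liberase and plated briefly with Ara-C, which blocks dividing cells, so that fibroblasts would attach and be left behind. No genetic change is given for either group. The litter of each library was not given, so the p-values measure only the spread between these libraries. The sample names also carry a number, 11 in all 4 FA libraries and in DE replicates 1 and 7, and 12 in DE replicates 3 and 5. Its meaning was not given, and because no FA library carries 12, that number and the exposure cannot be told apart in DE replicates 3 and 5.

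HIF alpha subunits are made continuously and are destroyed when oxygen is plentiful, because the Egln enzymes use oxygen to hydroxylate prolines that the VHL ubiquitin ligase then recognises. When oxygen falls, the alpha subunit persists, pairs with Arnt and binds short DNA elements near target genes, among them Egln3 itself, genes of glycolysis and genes of mitochondrial turnover. Apelin, the product of Apln, and adrenomedullin, the product of Adm, are peptides that act on receptors of vessels and of heart muscle, and both genes are known to respond to hypoxia. Because the control of the alpha subunits is mostly at the protein, mRNA levels do not report HIF activity directly.

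Of the 10 genes, 3 were called higher in DE than in FA, Mgarp 2.94-fold, Egln3 2.25-fold and Apln 3.00-fold, and none was called lower. A gene was called when its adjusted p in edgeR's quasi-likelihood test was at most 0.05 and the fitted difference was at least 25%, a rule that called 5.8% of all genes tested (3.58% higher and 2.22% lower in DE). The same 3 genes were the members whose lowest DE library lay above the highest FA library, which held for 7.43% of all genes tested. Since the genes were picked from this comparison, nothing is read from these shares.

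The start of Egln3, Mgarp, Apln and Ankrd37 is shown because these 4 genes had the largest fitted differences of the 10, and because the HIF complex is known to bind the core letters ACGTG or GCGTG. Each sequence runs 5′ to 3′ on the strand of the gene and covers 250 bases before to 50 bases after the start in RefSeq, build GRCm38.p6, and capitals mark every match to either core on either strand.
Egln3: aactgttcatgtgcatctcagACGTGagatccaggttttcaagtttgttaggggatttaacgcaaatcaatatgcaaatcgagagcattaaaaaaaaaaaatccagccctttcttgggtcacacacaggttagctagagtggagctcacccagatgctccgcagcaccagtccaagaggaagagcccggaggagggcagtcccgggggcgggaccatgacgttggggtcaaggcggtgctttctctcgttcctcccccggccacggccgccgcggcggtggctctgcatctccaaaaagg
Mgarp: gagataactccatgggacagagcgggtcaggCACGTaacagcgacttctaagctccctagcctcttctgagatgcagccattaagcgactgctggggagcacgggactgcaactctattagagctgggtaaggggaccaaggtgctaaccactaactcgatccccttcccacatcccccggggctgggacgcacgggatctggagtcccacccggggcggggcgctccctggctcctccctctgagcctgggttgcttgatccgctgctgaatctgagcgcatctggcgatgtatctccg
Apln: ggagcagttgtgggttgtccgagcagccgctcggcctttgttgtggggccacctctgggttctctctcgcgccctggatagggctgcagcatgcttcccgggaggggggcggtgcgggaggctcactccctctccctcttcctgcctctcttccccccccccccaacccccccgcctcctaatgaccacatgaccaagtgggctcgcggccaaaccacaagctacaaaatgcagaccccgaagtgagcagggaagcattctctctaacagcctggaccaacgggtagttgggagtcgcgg
Ankrd37: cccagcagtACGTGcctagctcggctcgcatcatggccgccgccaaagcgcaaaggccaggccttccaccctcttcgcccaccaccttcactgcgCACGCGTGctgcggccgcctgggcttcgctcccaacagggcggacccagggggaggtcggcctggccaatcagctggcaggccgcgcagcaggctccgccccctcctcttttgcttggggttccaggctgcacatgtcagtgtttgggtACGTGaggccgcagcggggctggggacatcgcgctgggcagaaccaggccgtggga
These windows lie on the minus strand at chr12:54203825-54204124 for Egln3, chr3:51396498-51396797 for Mgarp, chrX:48034804-48035103 for Apln and chr8:45999801-46000100 for Ankrd37. Egln3 held 1 match, which begins 229 bases before the start, and Mgarp held 1, which begins 219 bases before it. Ankrd37 held 4, namely ACGTG at 241 and 6 bases before the start and, overlapping each other, GCGTG on both strands at 155 and 152 bases before it. The Apln window held neither core, which says only that these letters are not in this window. Sequences were found for 8 of the 10 genes, and 7 of those 8 held at least 1 match, while either core occurred in 43.8% of 32851 mouse promoters of the same length. ACGTG occurred in 19.6% and GCGTG in 32.4% of them, and CACGTG, an E-box that holds ACGTG on both strands, in 7.15%. A match is a description of the letters and not of binding.

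Total counts ranged from 17943024 to 38619126 in the FA libraries and from 18683325 to 39839737 in the DE libraries. Values are given as CPM, the count of a gene scaled to a common library size, with library sizes adjusted by the trimmed mean of M values (TMM), and levels of different genes were compared only as CPM per kilobase of exon. The labelled cell type was checked on 9 cardiomyocyte markers, all with counts in every library, whose summed level was 62023 to 65848 CPM in FA and 52094 to 59956 CPM in DE. Summed fibroblast markers were 2008 to 3461 CPM in FA and 3655 to 6177 CPM in DE, and summed mural cell markers were 1602 to 2154 CPM in FA and 1174 to 1539 CPM in DE. Most of the mural sum was Acta2 and Abcc9, and of its 8 markers 5 were fitted higher in DE and 3 lower, their median being 0.11 on the log2 scale. Of these 8, edgeR's quasi-likelihood test called 0 and DESeq2 1, and 2 had an unadjusted p under 0.05. Over all 14966 genes tested these numbers were 868, 1618 and 3828. For each of these 3 lists the groups did not overlap (exact permutation test, two-sided, p = 0.0286, the smallest that 4 against 4 allows, adjusted p = 0.0952 over 10 lists). The 12 endothelial markers, with counts in every library, summed to 1084 to 1391 CPM in FA and 1176 to 1751 CPM in DE. The lists for atrial, leukocyte, erythroid, mesothelial and hepatocyte genes gave p = 0.343, 0.114, 0.171, 0.971 and 0.0857 in the same exact test, and that for tip, venous and endocardial endothelium p = 0.40. In bulk RNA, fewer cells of a type and less RNA per cell cannot be told apart. The part of cell composition in the differences below was not tested.

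**Figure D1:**
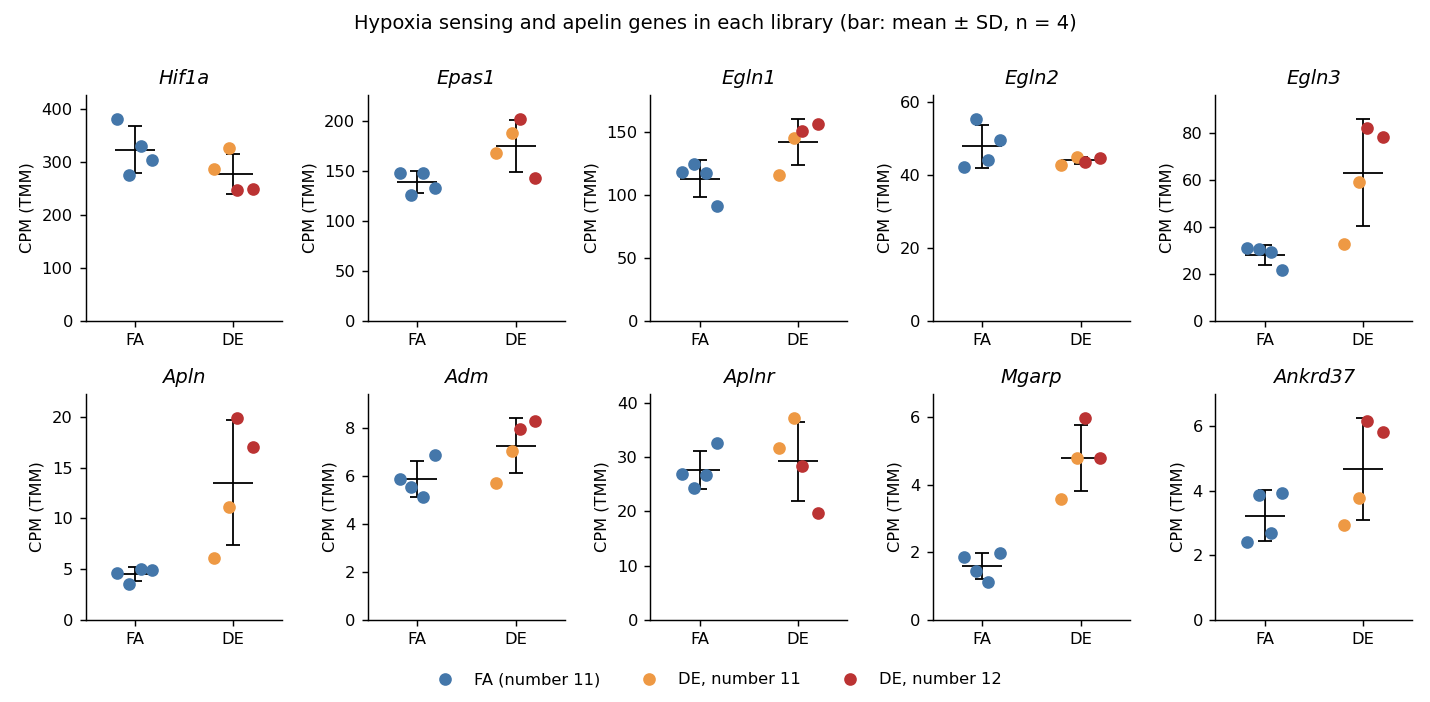
TMM-scaled CPM of each of the 10 genes (vertical axes, each from 0) in the 4 FA and 4 DE libraries (points, coloured by group and by the number in the sample name), with bars for mean ± SD. The DE points of Egln3, Apln and Mgarp all sit above the FA points, and the lowest DE point is replicate 1 in each of the 3.

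Hif1a and Epas1 encode the oxygen-regulated parts of the HIF dimers, Hif1a in nearly all cells and Epas1 most of all in endothelium. Hif1a (chr12:73901324-73947554, whole gene on GRCm38, as for the genes below) measured 381, 276, 331 and 305 CPM in FA replicates 2, 3, 4 and 6, the order kept below, and 286, 327, 247 and 249 CPM in DE replicates 1, 7, 3 and 5. The ranges overlapped, the lowest values being those of the DE libraries with number 12. The fitted log2 fold change of DE over FA was -0.22 (SE 0.13, adjusted p = 0.297). Its exons share 330 bases with Gm15283 on the opposite strand and 148 with Gm49321 on the same strand.

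Epas1 (chr17:86753864-86833410) measured 147, 126, 148 and 133 CPM in FA and 168, 188, 202 and 143 CPM in DE in the same order. Its 3 highest values were DE libraries, and DE replicate 5 lay within the FA range. The fitted log2 fold change was 0.34 (SE 0.12, adjusted p = 0.112), so neither subunit passed the test.

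The balance of these subunits was also taken within each library, where the scaling of the library cancels. The ratio of Hif1a to Epas1, each as CPM per kilobase, was 2.45, 2.08, 2.11 and 2.17 in FA and 1.62, 1.65, 1.16 and 1.65 in DE. Hif1a was the more abundant transcript per length in all 8 libraries, and the 4 DE ratios lay below the 4 FA ratios, 1.52 ± 0.24 (SD, n = 4) against 2.20 ± 0.17. The ratio is a description of genes chosen from these libraries and was given no test.

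The Egln enzymes set how fast HIF alpha is removed. Egln1 is the main oxygen sensor in most tissues, Egln2 is little affected by oxygen at the mRNA level, and Egln3 is known as a strongly hypoxia-induced member. Egln3 (chr12:54178981-54203874) measured 30.9, 30.5, 29.2 and 21.8 CPM in FA and 32.6, 59.1, 82.5 and 78.7 CPM in DE replicates 1, 7, 3 and 5. All DE values were above all FA values, but DE replicate 1 exceeded the highest FA library only slightly, and the libraries with number 12 were the highest. The average went from 28.1 ± 4.25 CPM without to 63.2 ± 22.8 CPM with DE exposure (SD, n = 4), and Egln3 rose with a log2 fold change of 1.17 (SE 0.25, adjusted p = 0.0231). Without FA replicate 2, FA replicate 4 or DE replicate 3 the adjusted p was 0.0638, 0.0685 or 0.0707, and the call was lost. The log2 fold change was then 1.22, 1.18 or 1.01, and the calls over all genes fell from 868 to 249, 237 or 268. The Egln3 fold change stayed between 1.01 and 1.38 on the log2 scale when any 1 library was left out.

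Egln1 (chr8:124908587-124949254) measured 118, 125, 117 and 91.3 CPM in FA and 116, 145, 150.4 and 156 CPM in DE. Of its DE values, 3 exceeded the FA range and that of replicate 1 lay inside it, with a log2 fold change of 0.33 (SE 0.13, adjusted p = 0.137). Egln2 (chr7:27158658-27166802) measured 42.3, 55.4, 44.2 and 49.7 CPM in FA and 42.9, 45.1, 43.5 and 44.8 CPM in DE, all 4 of the latter within the FA range. Its log2 fold change was -0.12 (SE 0.10, adjusted p = 0.486). Its exons share 11 bases with Cyp2t4 on the opposite strand.

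Within the family, Egln1 was the most abundant hydroxylase per length in every library, at 49.5% to 55.1% of the 3 summed in FA and 47.3% to 53.8% in DE. The share of Egln3 was 16.0% to 19.5% in FA and 20.5%, 28.2%, 35.1% and 33.2% in DE replicates 1, 7, 3 and 5. Egln2 took 25.4% to 34.6% in FA and 17.6% to 25.6% in DE. The 3 genes summed to 51.4 to 65.9 CPM per kilobase in FA and 59.7, 78.7, 88.4 and 89.1 in DE, so the shift of share went with a higher sum in 3 of the 4 DE libraries.

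Apln encodes the precursor of the apelin peptides, which in the heart is known to come from endothelial cells and from cardiomyocytes. Apln (chrX:48025146-48034853) measured 4.60, 3.54, 5.02 and 4.92 CPM in FA, from 71 to 172 counts per library. In DE replicates 1, 7, 3 and 5 it measured 6.05, 11.1, 19.9 and 17.0 CPM, from 200 to 692 counts. The DE libraries were all above the FA libraries and fell into the order seen for Egln3, with replicate 1 closest to FA and the libraries with number 12 highest.

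Apln averaged 4.52 ± 0.68 CPM in the FA group and 13.5 ± 6.17 CPM in the DE group (SD, n = 4), and it rose with a log2 fold change of 1.58 (SE 0.31, adjusted p = 0.0173). Without FA replicate 2 or DE replicate 3 the adjusted p was 0.0604 or 0.0510, with log2 fold changes of 1.59 and 1.34. The endothelial markers were also mostly higher in DE, and their part in the Apln difference was not tested. Of the 12, 9 were fitted higher, with a median log2 fold change of 0.32, 6 had an unadjusted p under 0.05, and edgeR's quasi-likelihood test called 1 and DESeq2 4, where over all 14966 genes tested 3828 had such a p, edgeR called 868 and DESeq2 1618. Their summed level differed by 0.23 on the log2 scale (exact permutation test, p = 0.20, adjusted p = 0.286), and the markers of endothelial tip, venous and endocardial cells summed to 279.8 to 336 CPM in FA and 289 to 359.6 CPM in DE.

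Adm (chr7:110627657-110629820), which encodes a vasodilator peptide, measured 5.88, 5.53, 5.14 and 6.88 CPM in FA and 5.72, 7.04, 7.95 and 8.28 CPM in DE. In 3 DE libraries it lay above the FA range and replicate 1 within it, with a log2 fold change of 0.31 (SE 0.15, adjusted p = 0.236). Per length, Adm was 1.99 to 3.04 times Apln in FA and 1.84, 1.23, 0.779 and 0.945 times Apln in DE replicates 1, 7, 3 and 5. Apln was thus more abundant than Adm only in the DE libraries with number 12.

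Aplnr encodes the receptor of apelin, a G protein-coupled receptor found mostly on endothelium. Aplnr (chr2:85136360-85139923) measured 26.8, 24.3, 26.6 and 32.5 CPM in FA and 31.6, 37.1, 28.3 and 19.7 CPM in DE. The groups overlapped, with both the highest and the lowest of the 8 values in DE. The log2 fold change was 0.08 (SE 0.17, adjusted p = 0.804), and it became -0.0618 without DE replicate 7.

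Per length, Aplnr transcript was 4.51 to 5.85 times Apln transcript in FA. Apela, a further ligand gene of this receptor on the partner list, is not part of this ratio. It measured 1.16 ± 0.21 CPM per kilobase in FA and 1.06 ± 0.50 in DE. In DE the ratio of Aplnr to Apln was 4.44, 2.85, 1.22 and 0.985, all below the lowest FA library, so that the mean ratio was 2.37 ± 1.61 (SD, n = 4) against 5.24 ± 0.61 in FA. The 4 DE ratios spanned a wider range than the FA ratios, and DE replicate 1 lay next to FA.

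**Figure D2:**
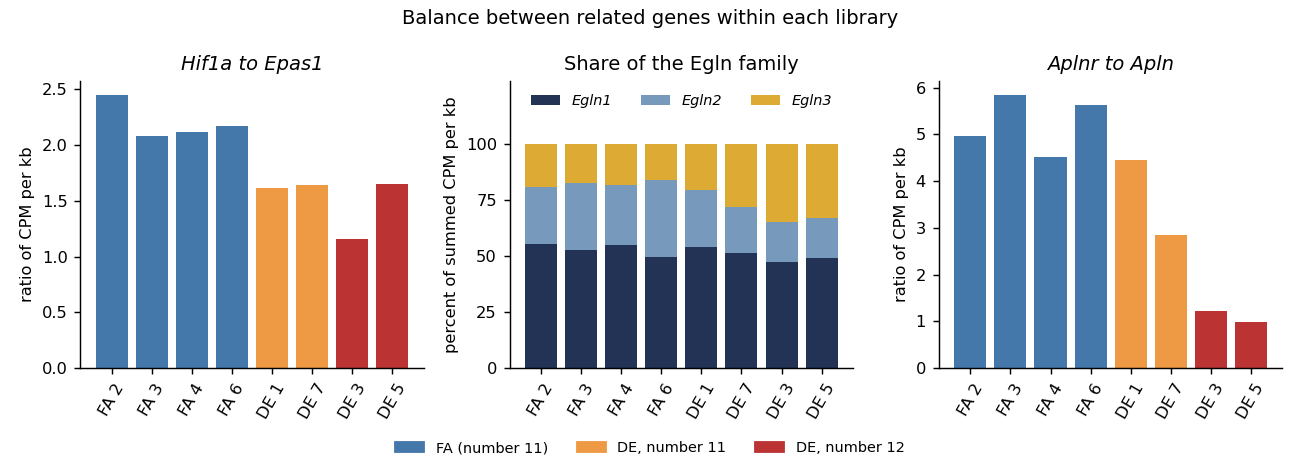
Ratio of Hif1a to Epas1 (left), percent of the summed Egln level held by each Egln gene (middle) and ratio of Aplnr to Apln (right), all from CPM per kilobase of exon, with 1 bar per library. In DE the Hif1a to Epas1 ratio was 1.16 to 1.65 against 2.08 to 2.45 in FA, and the Egln3 share reached 35.1% in DE replicate 3.

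Mgarp encodes a mitochondrial protein known to be induced by HIF and to govern the movement of mitochondria. Mgarp (chr3:51388412-51396547) measured 1.87, 1.44, 1.13 and 1.97 CPM in FA, from 20 to 70 counts per library. It measured 3.57, 4.80, 5.97 and 4.79 CPM in DE replicates 1, 7, 3 and 5, from 90 to 208 counts. The lowest DE library was well above the highest FA library, and DE replicates 7 and 5 were alike although they carry different numbers.

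Mgarp averaged 1.60 ± 0.39 CPM in the FA group and 4.78 ± 0.98 CPM in the DE group (SD, n = 4), and it rose with a log2 fold change of 1.55 (SE 0.22, adjusted p = 0.00306). Its call held under each of the 20 other ways of fitting that were run, with log2 fold changes between 1.34 and 1.72.

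Ankrd37 encodes an ankyrin repeat protein known as a HIF target. Ankrd37 (chr8:45996908-46000414) measured 2.41, 3.89, 2.71 and 3.93 CPM in FA and 2.94, 3.78, 6.17 and 5.84 CPM in DE. Both DE libraries with number 11 lay inside the FA range and both with number 12 above it. The log2 fold change over all DE libraries was 0.55 (SE 0.26, adjusted p = 0.208). Of its 1539 exon bases, 57 overlap Ufsp2 and 349 overlap Lrp2bp on the opposite strand, and since the strand setting of the counting was not given, their reads cannot be told apart there.

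By level per length in FA, Hif1a was the highest of the 10 genes at 54.8 ± 7.55 CPM per kilobase (SD, n = 4), above 95.1% of the genes tested. Egln1 followed at 31.4 ± 4.09, Epas1 at 24.8 ± 1.96, Egln2 at 17.1 ± 2.10 and Egln3 at 10.6 ± 1.60 CPM per kilobase. The signalling genes and targets lay lower, with Aplnr at 7.45 ± 0.94, Adm at 3.62 ± 0.46, Ankrd37 at 2.10 ± 0.51, Apln at 1.44 ± 0.22 and Mgarp at 0.78 ± 0.19 CPM per kilobase. Of the neighbours in this order, only Ankrd37 and Apln had mean ± SD intervals that overlapped.

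In DE the order changed at 2 places. Egln3, at 23.8 ± 8.58 CPM per kilobase, had a higher mean than Egln2 at 15.7 ± 0.37, and Apln, at 4.29 ± 1.96, a higher mean than Ankrd37 at 3.04 ± 1.02. The others were Hif1a at 47.0 ± 6.41, Egln1 at 39.5 ± 5.06, Epas1 at 31.3 ± 4.62, Aplnr at 7.89 ± 1.97, Adm at 4.48 ± 0.71 and Mgarp at 2.31 ± 0.47 CPM per kilobase. Of the neighbours in the DE order, only Egln2 and Aplnr, and Aplnr and Adm, had intervals that did not overlap.

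The number in the sample name marked a further split among the DE libraries, fitted with FA, DE number 11 and DE number 12 as 3 groups, of which the comparisons of number 12 were added after the data were seen. Against FA, the DE libraries with number 11 gave a log2 fold change of 1.34 (SE 0.24, adjusted p = 0.0120) for Mgarp, 0.90 (SE 0.23, adjusted p = 0.0567) for Apln and 0.70 (SE 0.20, adjusted p = 0.0908) for Egln3. Mgarp was thus the 1 member called, where the same rule called 2.99% of all genes tested (1.78% higher). Using only the 6 libraries with number 11 gave 1.34 for Mgarp (adjusted p = 0.0223), 0.90 for Apln (adjusted p = 0.0873) and 0.69 for Egln3 (adjusted p = 0.131), so that 1 member was again called, where 1.75% of the genes tested were called (0.96% higher).

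The DE libraries with number 12 differed from FA in more of the genes, as they did over the whole table, where 23.4% of the genes tested were called (9.97% higher). Of the members, 6 were called, with log2 fold changes of 2.03 for Apln (adjusted p = 0.000457), 1.72 for Mgarp (0.00142), 1.52 for Egln3 (0.00141), 0.91 for Ankrd37 (0.0125), 0.47 for Adm (just under 0.05) and 0.44 for Egln1 (0.0393). Hif1a, Epas1, Egln2 and Aplnr were not called, at -0.38, 0.31, -0.12 and -0.20.

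The difference between the DE libraries themselves was called for Apln alone, which was higher with number 12 by 1.13 on the log2 scale (SE 0.25, adjusted p = 0.0443), where 2.06% of all genes tested were called (0.528% higher and 1.54% lower). Ankrd37 differed by 0.85 (adjusted p = 0.0916), Egln3 by 0.82 (SE 0.24, adjusted p = 0.0835), Aplnr by -0.51 (adjusted p = 0.135) and Mgarp by 0.38 (adjusted p = 0.371). Both libraries with number 12 exceeded both with number 11 in 5 of the 10 genes and lay below them in 2, where either order held for 60.2% of all genes tested and the first for 29.9%.

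**Figure D3:**
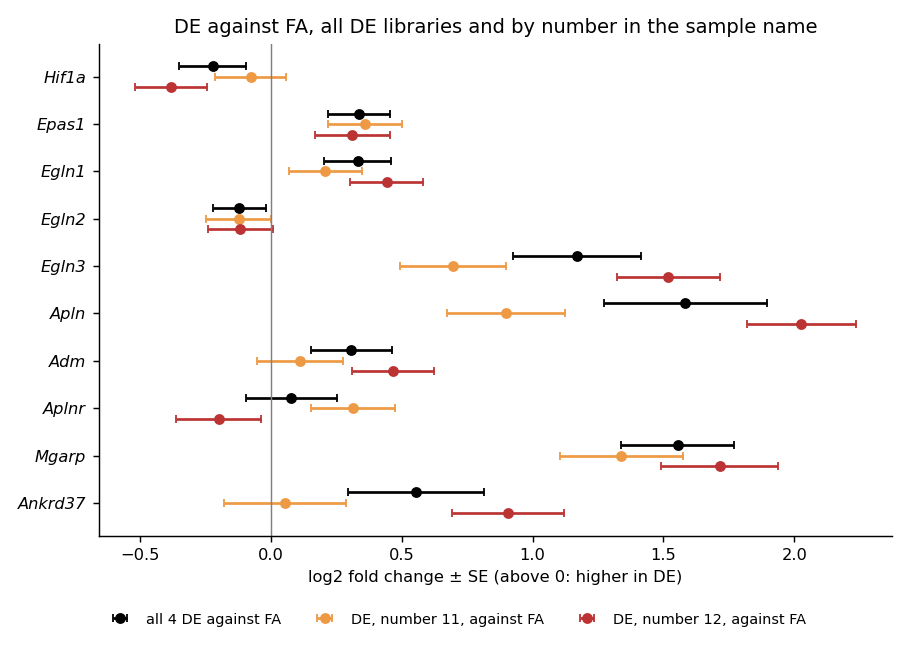
Fitted log2 fold change ± SE against FA (horizontal axis, positive values are higher in DE) of the 10 genes, for all 4 DE libraries and for those with number 11 and number 12. Mgarp lay at 1.34 and 1.72 in the 2 sets of DE libraries, and Ankrd37 at 0.05 and 0.91.

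Beside the 3 calls, the settings of the test mattered for Egln3 and Apln. When the 25% difference was built into the test, which called 114 genes in place of 868, the adjusted p was 0.00945 for Mgarp, 0.0898 for Egln3 and 0.0593 for Apln.

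**Figure D4:**
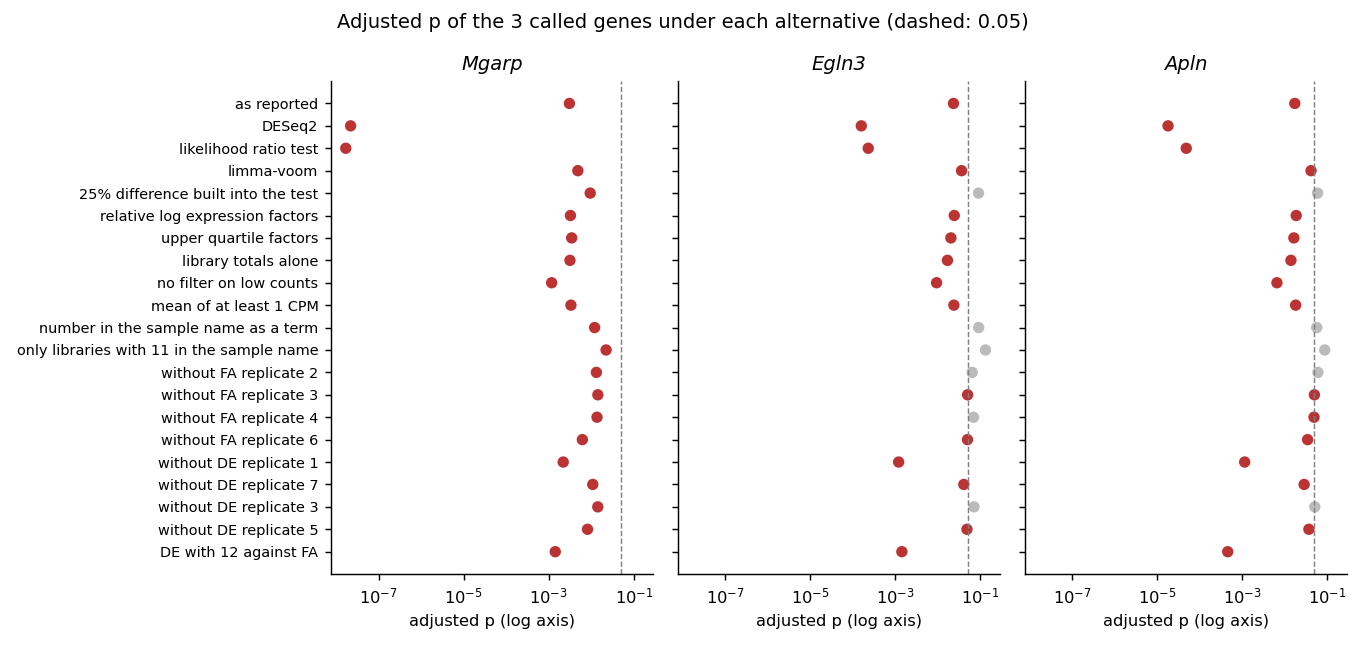
Adjusted p (log axis, dashed line at 0.05) of Mgarp, Egln3 and Apln as reported and under each of 20 alternatives (rows), red where the gene was called. Mgarp was called in every row, whereas Egln3 and Apln lay to the right of the line without FA replicate 2 or DE replicate 3, with the number as a term, with number 11 alone and with the 25% difference built in, and Egln3 also without FA replicate 4.

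The 18 listed partners of HIF hold the dimer partners, the further alpha subunit gene Hif3a, the VHL ligase, the asparagine hydroxylase and coactivators. Of these, 0 passed edgeR's quasi-likelihood test with the 25% rule, which called 5.8% of all genes tested. An unadjusted p under 0.05 was found for 4, beside 3828 of the 14966 genes tested. DESeq2 called 1, beside 1618 over all genes tested. The median log2 fold change was 0.10, beside 0.00 over all genes tested. Hif3a had the highest value of the list, 0.66 (SE 0.20, adjusted p = 0.0693). It measured 39.8, 49.0, 45.4 and 35.9 CPM in FA and 94.1, 44.0, 69.1 and 61.7 CPM in DE, and the groups overlapped. Vhl, the recognition subunit of the ligase, measured 19.5 ± 1.11 CPM under FA and 18.5 ± 1.04 CPM under DE (SD, n = 4; log2 fold change -0.08, adjusted p = 0.642). Arnt, the shared dimer partner, measured 95.9 ± 7.36 and 81.6 ± 7.01 CPM (-0.23, adjusted p = 0.167), and Hif1an, the asparagine hydroxylase, 84.7 ± 8.93 and 69.4 ± 14.0 CPM (-0.29, adjusted p = 0.225). In the comparison of the DE libraries with number 12 against FA, which called 23.4% of all genes tested, 5 of the 18 were called. Arnt (-0.34, adjusted p = 0.0408) and Hif1an (-0.55, adjusted p = 0.0110) were lower, as were the coactivators Ep300 (-0.83, adjusted p = 0.0132) and Crebbp (-0.87, adjusted p = 0.0264), and the coregulator Cited4 was higher (0.64, adjusted p = 0.0115), the last 3 named after their values were seen.

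Of 16 listed partners of the apelin and adrenomedullin systems, 14 were tested and 1 was called, where 5.8% of all genes tested were. This was Ramp2, which turns the receptor Calcrl into an adrenomedullin receptor, at 28.3, 36.6, 30.4 and 42.6 CPM in FA and 53.4, 48.7, 63.8 and 50.9 CPM in DE. The groups did not overlap, and Ramp2 rose with a log2 fold change of 0.66 (SE 0.14, adjusted p = 0.0249), a call that 7 of the 20 alternatives did not keep. Calcrl itself measured 35.6 ± 9.07 CPM under FA and 34.0 ± 8.49 CPM under DE (SD, n = 4; adjusted p = 0.858), and Ramp3, the alternative partner of Calcrl, 8.72 ± 1.18 and 11.4 ± 4.07 CPM (adjusted p = 0.321). The median of this list was -0.05.

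Genes that HIF is known to control were described from 4 lists of 65 genes, of which 64 were tested. Of these, 15 rose and 2 fell, where 3.58% of all genes tested were called higher and 2.22% lower, the background for each of these lists as well. The median log2 fold change was 0.27, and 33 had an unadjusted p under 0.05, as did 3828 of the 14966 genes tested. Like the 10 genes, the lists were chosen with results of these data known, and their counts are a description.

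Glycolysis and glucose uptake gave 7 of 20 called higher and 0 lower, with 19 of 20 fitted above 0 and a median of 0.35. Slc16a3, which exports lactate, measured 10.4, 8.82, 10.2 and 11.3 CPM in FA and 18.3, 34.1, 63.0 and 62.0 CPM in DE replicates 1, 7, 3 and 5, the order seen for Apln and Egln3. It rose with a log2 fold change of 2.13 (SE 0.33, adjusted p = 0.00552). Pfkl, a phosphofructokinase subunit, rose from 82.4 ± 5.20 to 186 ± 46.2 CPM (log2 fold change 1.17, adjusted p = 0.00325), Slc2a1, a glucose transporter, from 26.9 ± 1.52 to 52.0 ± 9.90 CPM (0.95, adjusted p = 0.00308), and Ldha, which makes lactate, rose by 0.71 (adjusted p = 0.00406). Pfkp, another phosphofructokinase subunit, and Pgk1, a glycolytic kinase, rose by 0.59 (adjusted p = 0.0134) and 0.46 (adjusted p = 0.0293). With the number in the sample name as a term, these 2 were not called (adjusted p = 0.0548 and 0.114), and their calls were lost under 4 and 9 of the 20 alternatives.

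Of 13 genes of mitochondria, autophagy and survival, 5 rose and 0 fell, with 9 of 13 fitted above 0, a lowest value of -0.89 and a median of 0.36. Bnip3, which marks mitochondria for autophagy, rose from 88.4 ± 7.74 to 191 ± 26.0 CPM (log2 fold change 1.11, adjusted p = 0.000628). Ndufa4l2, known to restrain respiratory complex I in hypoxia, rose from 5.72 ± 1.15 to 13.8 ± 3.33 CPM (1.28, adjusted p = 0.00495), and Cox4i2, a hypoxia-linked subunit of cytochrome oxidase, from 2.85 ± 0.50 to 5.65 ± 1.41 CPM (0.99, adjusted p = 0.0196). Fam162a rose by 0.62 (adjusted p = 0.0295) and Ndrg1 by 0.52 (adjusted p = 0.0452). With the number as a term the adjusted p was 0.0816 for Cox4i2, 0.129 for Fam162a and 0.213 for Ndrg1, and their calls were lost under 6, 8 and 9 of the 20 alternatives.

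In the list of vessels and secreted factors, 2 of 16 tested genes were called higher and 2 lower, with 14 of 16 fitted above 0 and a median of 0.14. Igfbp3, a binding protein of insulin-like growth factors, rose by 1.30 (adjusted p = 0.00401) and Pgf, a vascular growth factor, from 4.34 ± 0.66 to 8.57 ± 2.47 CPM (adjusted p = 0.0234). The call of Pgf was lost under 6 of the 20 alternatives, among them the number as a term (0.60, adjusted p = 0.0954). Angptl4, an inhibitor of lipoprotein lipase, fell by 2.06 on the log2 scale (24.1 ± 3.64 to 5.73 ± 1.71 CPM, adjusted p = 0.000328). Tfrc, the transferrin receptor, fell by 1.70 on the log2 scale (351 ± 55.5 to 108 ± 7.75 CPM, adjusted p = 5.37e-05). Vegfa, the vascular growth factor often used as a readout of HIF, measured 221 ± 28.8 and 233 ± 28.4 CPM and did not pass the test (adjusted p = 0.742).

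Among 15 genes of matrix and collagen hydroxylation 1 was called, Loxl2, a lysyl oxidase, which went from 124 ± 16.1 to 182 ± 18.9 CPM (log2 fold change 0.55, adjusted p = 0.0260). Its call was lost under 6 of the 20 alternatives. Of the list, 9 of 15 were fitted above 0, and the median was 0.12. DESeq2 called 4 of the 15, beside 1618 over all genes tested. With number 12 against FA, 4 were called higher and 1 lower, where 9.97% and 13.4% of all genes tested were. The summed fibroblast markers given above were also higher in DE, although the plating step was meant to remove fibroblasts, and their part in this list was not tested.

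**Figure D5:**
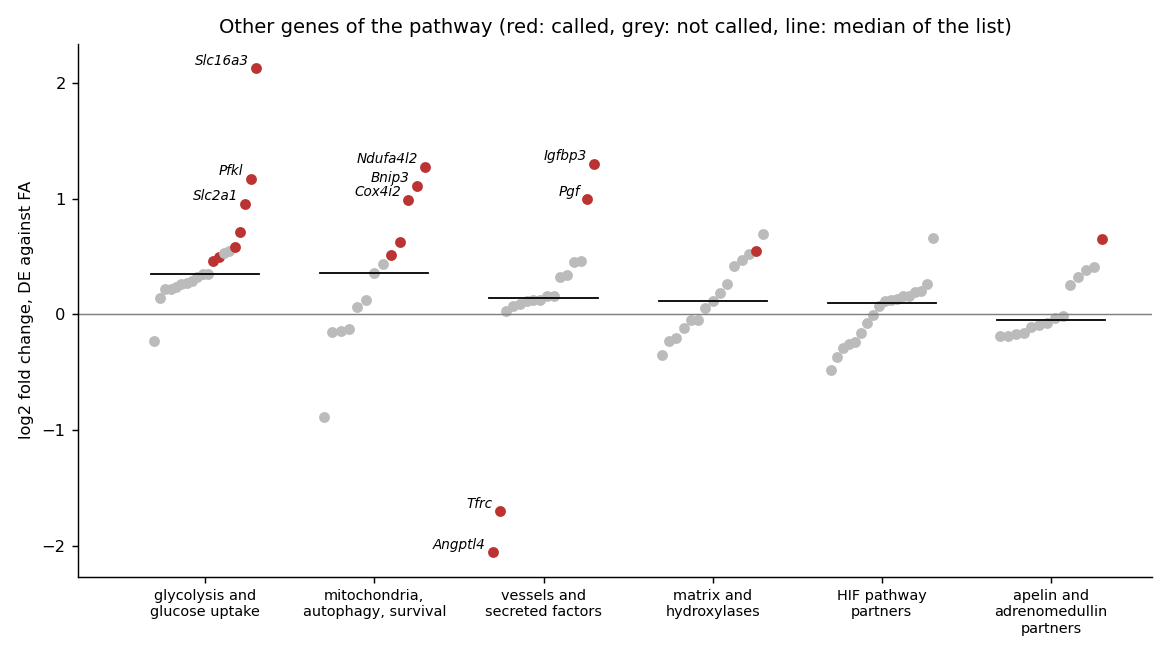
Fitted log2 fold change of DE over FA (vertical axis) of each tested gene of the 6 lists, red where called, with a line at the median of each list. Slc16a3 lay highest at 2.13 and Angptl4 lowest at -2.06, while the partner lists lay around 0 with medians of 0.10 and -0.05.

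The genes that varied most like a member within the groups were ranked over 13352 genes by Pearson's r of log2 CPM centred on each group mean, over the 8 libraries. The genes compared were read in the same libraries, whose depths differ and of which the DE libraries are split by number. For Apln these included Lrp11 (r = 0.989) and Slc16a3 (0.981). For Aplnr they were Ednrb (0.971), Asah1 (0.966) and Gzf1 (0.965), and for Epas1 they were Tnks1bp1 (0.990), Rapgef1 (0.953) and Cd93 (0.948). Slc16a3 is itself on the glycolysis list, and Cd93 is known as an endothelial surface protein. With 8 libraries and this many genes, values of this size are a description of the ranking only.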

How the data were processed

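RNA from 8 libraries of neonatal cardiomyocytes was sequenced from stranded, poly-A selected libraries; the authors mapped reads to mm10 by TopHat, flagged duplicates by Picard, used GATK for realignment and recalibration, and obtained fragment counts by featureCounts. What they deposited are unnormalized counts for each Entrez gene. The sources used here do not give the versions of TopHat, Picard or featureCounts, whether counting used strand, or how multi-mapping reads were handled. Duplicates were marked and kept, so the counts are not counts of independent molecules. The methods give fewer replicates per group than the labels, and all 8 labelled libraries were used here.

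Symbols and positions came from RefSeq GRCm38.p6, the assembly of mm10, and 93.0% of the 27179 genes had a symbol. Genes were filtered with filterByExpr (minimum count 10), scaled by TMM and tested in edgeR 4.0.16 (glmQLFit, glmQLFTest, R 4.3.3) over the 14966 genes left, with Benjamini-Hochberg adjustment over all of them. Calls needed both an adjusted p of at most 0.05 and a fold of at least 1.25. SEs are the absolute log2 fold change divided by the square root of F. The biological coefficient of variation was 16.0%. Exon lengths for CPM per kilobase came from GENCODE M21 on GRCm38. Sums over 10 lists of cell type markers were compared by exact permutation tests. The fitting script was tested on simulated counts.

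Alternatives were DESeq2 1.42.0, limma 3.58.1 (voom), a likelihood ratio test, the 25% difference built into the test, other scalings, other filters, each library left out, and the number in the sample name as a term. The members and gene lists were chosen with earlier results of these data known. Beside the genes named below, Hif3a and Apela were named with their values known. The genes named are the 10 members, Vhl, Arnt, Hif1an, Calcrl, Ramp2, Ramp3, Vegfa and Slc2a1, up to 6 called genes per list by smallest adjusted p, and the 3 genes (mean of at least 1 CPM) whose pattern was closest to Apln, Aplnr and Epas1, of which 1 is not reported here.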

Additional observations from a re-analysis of the deposited data

Results flagged for a closer look

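Apln differed within the DE group, between libraries whose sample names carry different numbers: it was higher with number 12 than with number 11 by 1.13 on the log2 scale (SE 0.25, edgeR's quasi-likelihood test, adjusted p = 0.0443). Both libraries with number 12, at 19.9 and 17.0 CPM, lay above both with number 11, at 6.05 and 11.1 CPM. The difference was tested directly, on 2 libraries each. In none of the 20 groups of 4 values looked at (10 genes in FA and DE) did 1 library stand further from the rest than Dixon's 95% critical value.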

How the results depend on the processing

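In place of the 868 genes called, DESeq2 gave 1618, the likelihood ratio test 1603, the 25% difference built into the test 114, the number as a term 448, libraries with number 11 alone 260 and DE with number 12 against FA 3499; leaving out 1 library gave 237 to 1168, the calls falling to 237, 249 and 433 when FA replicates 4, 2 and 3 were left out and to 268 and 526 when DE replicates 3 and 5 were. Scaling by library totals alone moved the median log2 fold change of all genes to 0.08 and the share of calls that were higher from 61.8% to 78.7%. Of the members, 3 were called as reported, 1 with the 25% built in, 1 with the number as a term, 1 with number 11 alone, 6 with number 12 against FA and 1 to 3 with 1 library left out (1 without FA replicate 2 or DE replicate 3, 2 without FA replicate 4). Target genes called, 17 as reported, were 9, 10, 9 and 34 under these same settings and 9 to 24 with 1 library left out. Of the partners of the apelin and adrenomedullin systems and of HIF, 1 was called as reported, 2 by DESeq2, by the likelihood ratio test and with no filter, 0 with the 25% built in, the number as a term or number 11 alone, 11 with number 12 (5 higher and 6 lower, among them Arnt at -0.34 and Hif1an at -0.55) and 0 to 2 with 1 library left out. Egln3 was not called with the 25% built in (1.17), the number as a term (0.70) or number 11 alone (0.69), and ranged from 1.01 to 1.38 with 1 library left out; Apln was not called under the same settings (1.58, 0.90 and 0.90), and ranged from 1.34 to 1.83. Of the members, Egln1 (0.44), Adm (0.47) and Ankrd37 (0.91) were called only with number 12 against FA. The sign turned for Aplnr with number 12 (-0.20) and without DE replicate 7 (-0.0618, range with 1 library left out -0.0618 to 0.23), for Calcrl with the number as a term and number 11 alone (0.13 in both) and without FA replicate 6 (0.0344) or DE replicate 5 (0.0570, range -0.24 to 0.0570), and for Vegfa with the number as a term (-0.0538), number 11 alone (-0.0581) and without FA replicate 6 (-0.0161, range -0.0161 to 0.15), none of them called; the cause of these changes was not tested. Mgarp kept its direction and call under all 20 alternatives, from 1.34 to 1.72. No paired analysis was made, because the labels give no pairing of FA with DE hearts. With 20 to 70 counts of Mgarp and 71 to 172 of Apln per FA library, counting error adds to the spread of these genes.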

Other observations

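Other genes of the lists also differed between the DE libraries by the number in the sample name, and were chosen after their values were seen. Pgam1, a glycolytic mutase, measured 75.2 to 102 CPM in FA, 81.7 and 92.0 CPM in DE with number 11 and 162 CPM in both DE libraries with number 12, a difference of 0.90 on the log2 scale within DE (edgeR's quasi-likelihood test, adjusted p = 0.0339). P4ha2, a collagen prolyl hydroxylase, measured 19.1 to 21.8 CPM in FA, 23.2 and 24.4 CPM with number 11 and 42.1 and 39.6 CPM with number 12 (0.78, adjusted p = 0.0339). Edn1, which encodes endothelin, measured 25.9 and 28.5 CPM with number 11 and 44.7 and 39.1 CPM with number 12 (0.63, adjusted p = 0.0443), and Slc16a3 differed by 1.27 (adjusted p = 0.0339).

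Cited4, on the list of HIF partners and known as a transcriptional coregulator, measured 10.8 to 15.5 CPM in FA, 9.77 and 9.75 CPM in DE with number 11 and 18.7 and 22.6 CPM with number 12 (1.08, adjusted p = 0.0339), so that the DE libraries lay on both sides of FA. Rora, a nuclear receptor, measured 3.44 to 9.99 CPM in FA, 6.14 and 5.81 CPM with number 11 and 1.43 and 1.77 CPM with number 12 (-1.89, adjusted p = 0.0480).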
